A study of Mus musculus with 17 samples.

Results

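The genes of interest were 8 complement genes, the components C1qa, C1qb, C1qc, C4b and C3 and the regulators Serping1, Cd59a and Clu, described across 17 libraries of ribosome pull-down RNA from mouse cerebral cortex. They were chosen as the rows of the count table whose Ensembl ID belongs to one of these 8 symbols, out of 39017 genes in the table. The rule uses no measured value, but the 8 symbols were picked with earlier results of these data known. All 8 of 8 were among the 22242 genes tested. The libraries came from 4 male and 4 female controls and from 5 male and 4 female EAE mice, and the study asked how cortical neurons of each sex respond to chronic experimental autoimmune encephalomyelitis (EAE), a mouse model of multiple sclerosis. All mice, controls included, were C57BL/6J NSE-Cre:RiboTag animals, in which Cre under the promoter of neuron specific enolase puts an HA tag on the ribosomal protein Rpl22, and the tag was used to pull down ribosomes with their RNA. EAE mice had been immunised with a MOG peptide in Complete Freund's Adjuvant with Mycobacterium tuberculosis, boosted, and given pertussis toxin, whereas controls were healthy mice of the same age and sex. Controls are described only as healthy, so effects of adjuvant and toxin cannot be told apart from those of EAE. The Cre allele came from the mother, and the promoter defines which cells carry the tag.

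Complement is a cascade of plasma and tissue proteins that tags targets for removal. C1q, built from the A, B and C chains that C1qa, C1qb and C1qc encode, recognises a target and starts the classical pathway, which cleaves C4 and then C3, and deposited C3 fragments lead to uptake by phagocytes or to assembly of a pore in the target membrane. Serping1 encodes C1 inhibitor, which stops the first proteases. Cd59a encodes a membrane protein that blocks the pore, and Clu encodes clusterin, a secreted chaperone that also binds the terminal complex. In brain, C1q is known as a product of microglia, C4b as a gene that reactive astrocytes and oligodendrocytes raise in inflammation, and Clu as an abundant astrocyte gene, and complement takes part in the removal of synapses.

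On the GRCm38 (mm10) assembly the 3 C1q genes lie next to each other on the minus strand of chromosome 4, C1qb (ENSMUSG00000036905) from 136880129 to 136886187, C1qc (ENSMUSG00000036896) from 136889804 to 136893065 and C1qa (ENSMUSG00000036887) from 136895917 to 136898803. C4b (ENSMUSG00000073418, 34728380 to 34743882) and C3 (ENSMUSG00000024164, 57203970 to 57228136) are both on the minus strand of chromosome 17. Serping1 (ENSMUSG00000023224, 84765387 to 84775444, minus strand) and Cd59a (ENSMUSG00000032679, 104095801 to 104115354, plus strand) are on chromosome 2, and Clu (ENSMUSG00000022037, 65968483 to 65981547, plus strand) is on chromosome 14. Promoter sequences from RefSeq (GRCm38.p6) were matched for 4 of the 8 genes, C1qb, C1qc, C3 and Cd59a, and were named only for C1qa, C4b, Serping1 and Clu. The 250 bases before the start site are shown for one chain of C1q, whose 3 chains varied together, for C3, a component that was higher in EAE males, and for Cd59a, which differed between the sexes. Capitals mark matches to 4 motifs searched on both strands, the core promoter box TATAAA, the C/EBP type TTGCNNAA, the PU.1 type GAGGAA and the interferon response type, GAAA followed after 2 bases of any kind by GAAA. The windows are chr4:136886201-136886450 (minus strand), chr17:57228137-57228386 (minus strand) and chr2:104095551-104095800 (plus strand).
C1qb: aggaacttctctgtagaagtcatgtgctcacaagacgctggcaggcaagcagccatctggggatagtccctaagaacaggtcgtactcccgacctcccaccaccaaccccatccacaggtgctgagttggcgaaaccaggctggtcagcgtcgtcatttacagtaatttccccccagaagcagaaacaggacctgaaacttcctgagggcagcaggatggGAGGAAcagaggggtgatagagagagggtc
C3: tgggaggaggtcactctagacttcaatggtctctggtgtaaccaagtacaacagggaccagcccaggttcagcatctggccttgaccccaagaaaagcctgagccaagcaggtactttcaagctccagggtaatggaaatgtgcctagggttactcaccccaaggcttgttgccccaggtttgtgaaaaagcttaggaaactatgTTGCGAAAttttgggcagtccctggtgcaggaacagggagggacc
Cd59a: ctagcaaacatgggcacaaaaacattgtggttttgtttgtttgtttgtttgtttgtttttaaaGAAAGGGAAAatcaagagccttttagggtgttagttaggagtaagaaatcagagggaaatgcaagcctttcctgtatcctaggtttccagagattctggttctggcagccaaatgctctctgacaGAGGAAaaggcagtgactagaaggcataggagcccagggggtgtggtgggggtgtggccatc
The C1qb window holds GAGGAA 30 bases before the start, and the C1qc window holds the same letters on the other strand, 193 bases before it. GAGGAA is also present in the Cd59a window, 62 bases before the start, and occurs in 23.3% of 32851 RefSeq promoter windows of this length. The C3 window has a TTGCNNAA match 45 bases before the start, a motif found in 9.56% of all windows. The Cd59a window has an interferon response type match 187 bases before the start, found in 2.98% of windows. No capitals overlap between motifs in these 3 windows, and no window of the 4 matched TATAAA (12.4% of all windows). These matches describe letters and were not tested for binding.

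Library totals lay between 66155142 counts, in a female EAE mouse, and 98433383 counts, in a male control. Male controls had 85800542 to 98433383 counts and EAE males 70613567 to 76768267, without overlap. Female controls had 83664876 to 92822398 counts and EAE females 66155142 to 86691316. In males depth therefore went with EAE, and its part in the calls, beyond the scaling to library size, was not tested. Values below are CPM, counts scaled to library size by TMM, and a gene was called differentially expressed at a false discovery rate (FDR) under 0.1 with a log2 fold change beyond 0.25 in either direction by edgeR's quasi-likelihood test, whose fold changes are given with their standard error (SE), over all genes tested. Values by library follow the replicate numbers, 1 to 4 in each control group, 1 to 5 in male EAE and 1, 3, 4 and 5 in female EAE mice. The samples are labelled as neurons. Summed over 12 neuron markers the libraries held 13204 to 18286 CPM, but 12 astrocyte markers summed to 5873 to 11309 CPM and 10 oligodendrocyte markers to 6092 to 9244 CPM, so markers of other cells were present in every library. Input RNA of the pull-down was not analysed here, and since these are bulk samples, more cells of a type and more RNA per cell cannot be told apart.

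The 8 genes spanned a wide range of abundance. Per kilobase of exon, which allows levels of different genes to be set side by side, Clu had a median of 187 CPM over the 17 libraries, Cd59a 5.58, C1qa 3.60, C1qb 2.12, C1qc 1.31, C4b 0.408, Serping1 0.210 and C3 0.00859. The ranges of C1qa (2.03 to 22.5) and Cd59a (2.58 to 7.78) overlapped, and so did those of C1qa, C1qb (1.14 to 19.05) and C1qc (0.853 to 9.50), whereas Clu (147 to 235) lay above all others. C3 was close to the limit of detection, with between 0 and 22 counts per library, and Serping1 had between 12 and 130 counts.

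**Figure D1:**
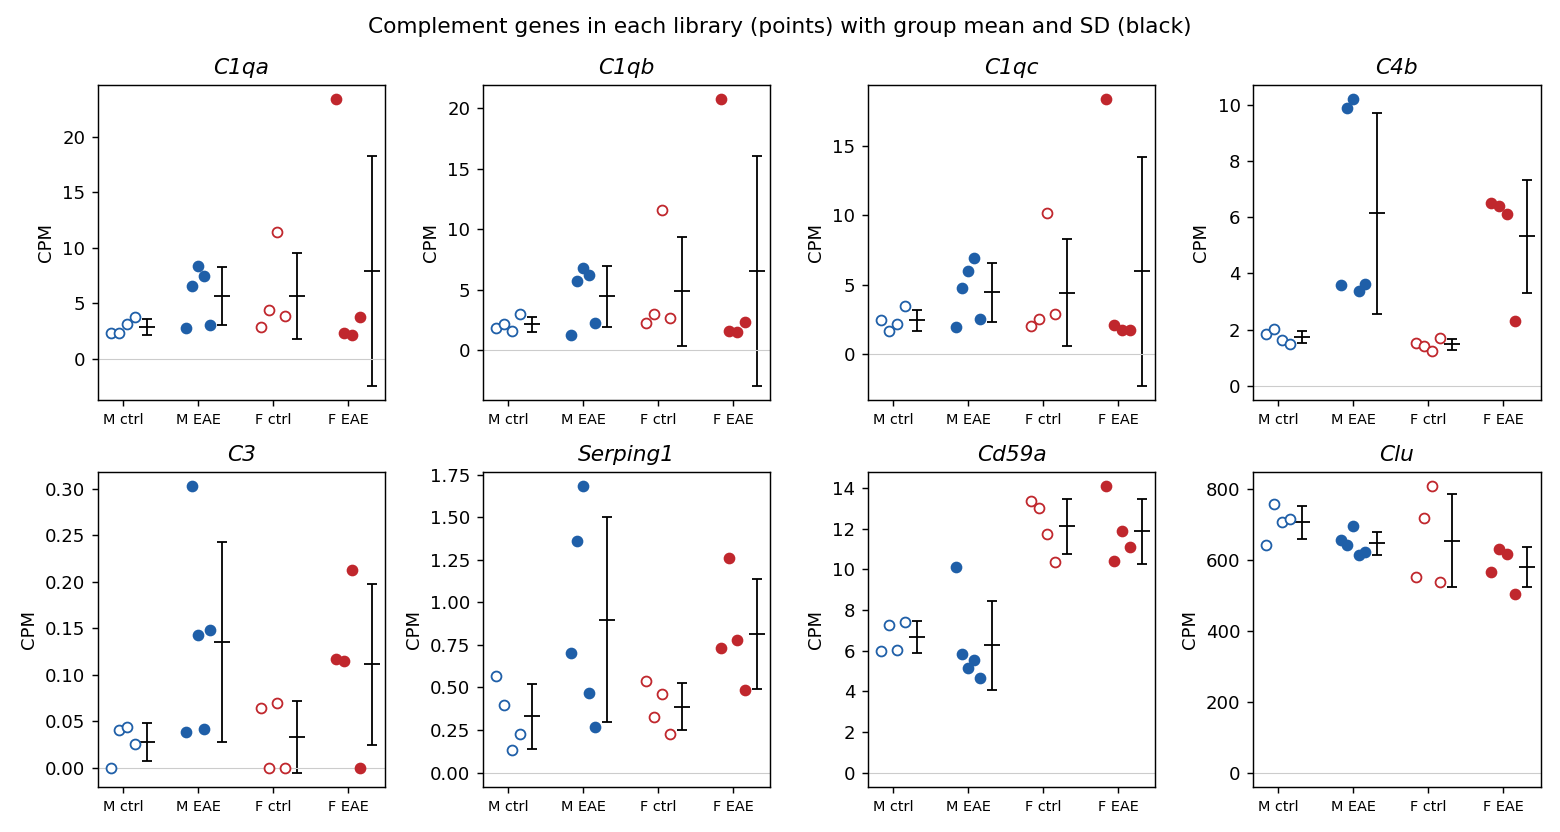
CPM (counts scaled to library size by TMM, linear axes) of the 8 complement genes in each of the 17 libraries, open points for control and filled points for EAE, blue for males and red for females, with the group mean and SD in black. C4b in EAE mice of both sexes lay above every control of the same sex, C1q was highest in 1 female control and 1 female EAE library, and Cd59a was higher in every female than in every male library, with male EAE 1 at 10.1 CPM.

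C4b, the classical pathway component cleaved by activated C1, was higher in EAE mice of both sexes. In male controls it had 1.84, 2.004, 1.63 and 1.49 CPM, and in male EAE mice 3.59, 9.90, 10.2, 3.37 and 3.64 CPM. Every male EAE library was above every male control, and male EAE 2 and 3 stood well above the other 3 EAE males. The male mean (± SD) rose from 1.74 ± 0.226 CPM in 4 controls to 6.14 ± 3.57 CPM in 5 EAE mice, a log2 fold change of 1.82 (SE 0.355, edgeR adjusted p = 0.00541). In female controls it had 1.53, 1.40, 1.25 and 1.70 CPM, and in female EAE mice 6.51, 6.38, 6.10 and 2.32 CPM. Again the groups did not overlap, and the lowest EAE female, female EAE 5, was still above the highest control. The female means (± SD) were 1.47 ± 0.188 and 5.33 ± 2.01 CPM in 4 mice each, with a log2 fold change of 1.86 (SE 0.370) and an unadjusted p of 8.26e-05 that gave an adjusted p of 0.115 from edgeR, just outside the threshold. The difference between the male and female log2 fold changes was -0.04, with a 95% interval from -1.08 to 0.999 (edgeR adjusted p = 0.987), so effects up to about 1 log2 unit apart remain possible. Averaged over the sexes the log2 fold change was 1.84 (edgeR adjusted p = 0.00124).

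The female call for C4b depended on the procedure. It was past the threshold in 15 of 31 alternative settings, among them DESeq2 (adjusted p = 0.00036), edgeR's exact test (1.35e-06) and a fit to each sex alone (0.0414), and the adjusted p ranged up to 0.353 when female EAE 3 was left out, with log2 fold changes of 1.68 to 2.10 throughout. In males the call was kept in 30 of 31 settings and lost with 1 surrogate variable in the model (1.81, edgeR adjusted p = 0.32). Without male EAE 2 and male EAE 3, a choice made after seeing the data, the male log2 fold change was 1.02 (edgeR adjusted p = 0.0119). C4b shares 34.6% of its 50-base stretches with its neighbour C4a, and how reads matching both were counted is not given in the sources used here. C4a itself had only 1 to 12 counts per library.

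C3, on which all complement pathways converge, was rare in every library. It was listed at 0 in male control 1, female control 2, female control 4 and female EAE 5, where the floor of 3 counts corresponds to 0.0346, 0.0375, 0.0339 and 0.0430 CPM. Male controls had 0, 4, 4 and 2 counts and male EAE mice 3, 22, 11, 3 and 11 counts, so male EAE 1 and 4 overlapped the controls and the other 3 EAE males were higher. The call in males (log2 fold change 2.20, SE 0.961, edgeR adjusted p = 0.0834) was kept in 20 of 31 alternative settings. Leaving out 1 control, male control 1 (adjusted p = 0.185), 3 (0.102) or 4 (0.161), ended the edgeR call, and so did leaving out 1 EAE mouse, 2 (0.226), 3 (0.106) or 5 (0.128). The call was also lost in limma voom (0.137). Female controls had 6, 0, 6 and 0 counts and female EAE mice 8, 8, 19 and 0 counts. The female groups overlapped at 0, and the log2 fold change of 1.69 (SE 0.980, edgeR adjusted p = 0.331) did not pass the test. Averaged over the sexes it was 1.95 (edgeR adjusted p = 0.0317).

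Serping1, the C1 inhibitor gene, rose in EAE males. Male controls had 0.566, 0.397, 0.133 and 0.229 CPM and male EAE mice 0.700, 1.36, 1.68, 0.470 and 0.269 CPM. Male EAE 2 and 3, which also had the highest C4b, were the highest, while male EAE 4 and 5 lay within the control range. The log2 fold change was 1.43 (SE 0.488, edgeR adjusted p = 0.0306), and without male EAE 2 and male EAE 3 it was 0.53 (adjusted p = 0.411), no longer a call. Female controls had 0.539, 0.325, 0.461 and 0.226 CPM and female EAE mice 0.733, 1.26, 0.781 and 0.487 CPM. The female EAE 5 library overlapped the controls and the other 3 were above them, with a log2 fold change of 1.07 (SE 0.503, edgeR adjusted p = 0.249).

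The 3 C1q chain genes were called in neither sex by the test used here, and they were dominated by single libraries in females. C1qa had 2.27, 2.35, 3.17 and 3.75 CPM in male controls and 2.74, 6.54, 8.39, 7.47 and 3.02 CPM in male EAE mice. Male EAE 2, 3 and 4 were above all male controls, and male EAE 1 and 5 were within their range. The log2 fold changes in males were 0.97 for C1qa, 1.05 for C1qb and 0.87 for C1qc, with standard errors of 0.608, 0.728 and 0.659 and adjusted p of 0.235, 0.283 and 0.33 from edgeR. C1qb had 1.82, 2.13, 1.62 and 3.02 CPM in male controls and 1.24, 5.71, 6.81, 6.25 and 2.24 CPM in male EAE mice, and C1qc had 2.42, 1.65, 2.165 and 3.48 CPM against 1.97, 4.75, 5.97, 6.95 and 2.54 CPM. The same 3 EAE males were above all male controls for each chain.

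In females C1qa had 2.89, 4.40, 11.4 and 3.89 CPM in controls and 23.4, 2.34, 2.11 and 3.80 CPM in EAE mice. C1qb had 2.25, 2.95, 11.6 and 2.62 CPM in controls and 20.7, 1.59, 1.51 and 2.31 CPM in EAE mice. C1qc had 2.06, 2.53, 10.2 and 2.91 CPM in controls and 18.3, 2.06, 1.76 and 1.72 CPM in EAE mice. Female control 3 and female EAE 1 were far above their groups for each chain, and the other EAE females lay mostly within or below the range of the other controls. The log2 fold changes of 0.48, 0.42 and 0.43 (adjusted p of 0.684, 0.776 and 0.745 from edgeR) turned to -1.06, -1.45 and -1.27 without female EAE 1 and to 1.08, 1.32 and 1.25 without female control 3, none of them a call. Left out together, a choice made after seeing the data, both libraries gave -0.44, -0.54 and -0.43 in females and adjusted p of 0.0264, 0.0423 and 0.0403 in males, where the 3 chains were then called higher. The male calls also appeared in edgeR's exact test (adjusted p = 0.012, 0.0367 and 0.0371) and in a fit to each sex alone (0.0329, 0.0664 and 0.0639), and for C1qa without female EAE 1 (0.0655).

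**Figure D2:**
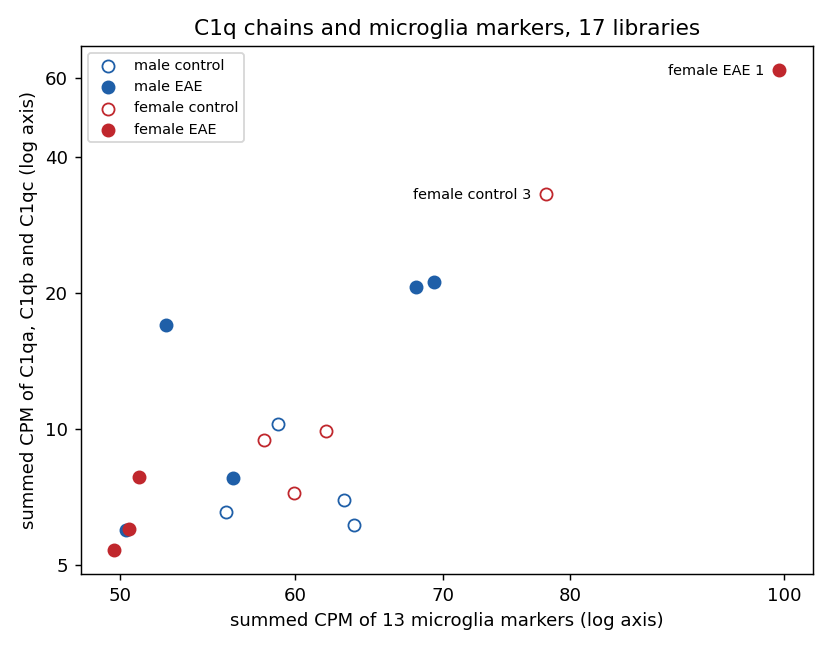
Summed CPM of C1qa, C1qb and C1qc (vertical, log axis) against the summed CPM of 13 microglia markers (horizontal, log axis) in 17 libraries, open points for control and filled for EAE, blue for males and red for females. Female EAE 1 and female control 3 are highest on both axes, at 62.5 and 33.2 CPM of C1q.

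Microglia markers were measured beside C1q, since microglia are its known source in brain. Female EAE 1 had the highest level of its group for 13 of 13 markers and female control 3 for 12 of 13. Their summed marker levels were 99.5 and 78.0 CPM, against 49.7 to 51.0 CPM in the other EAE females and 58.1 to 62.0 CPM in the other female controls. For Cx3cr1, the microglial fractalkine receptor, the levels were 10.5 and 5.24 CPM, and for Tmem119, a defining microglia marker, 7.94 and 4.71 CPM. The sums were 55.9 to 63.8 CPM in male controls and 50.3 to 69.4 CPM in male EAE mice, no microglia marker was at 0 in any library, and 2 of 13, among them Ctss at 1.37, were called higher in males, where 19.2% of all genes were, and 0 in females. The log2 ratio of summed C1q to summed microglia markers was -3.05 ± 0.369 in male controls (SD, n = 4), -2.20 ± 0.706 in male EAE (SD, n = 5), -2.39 ± 0.798 in female controls and -2.41 ± 1.18 in female EAE mice (SD, n = 4 each). The ratios overlapped between EAE and control mice in both sexes. Csf1r and Sall1, at medians of 27.0 and 16.6 CPM over the 17 libraries, were the largest terms of the marker sum. Both averaged lower in EAE males than in male controls (25.4 against 27.5 and 16.2 against 19.3 CPM). Tmem119, Cx3cr1 and the other markers therefore weigh little in the sum and the ratio. Tmem119, at 7.94 CPM in female EAE 1, was at 1.09 to 1.28 CPM in the other EAE females. The part of microglial RNA in the C1q levels was not tested.

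Among the regulators of the pore and of the terminal complex, neither Cd59a nor Clu was called in EAE of either sex. Cd59a had 5.97, 7.28, 6.04 and 7.40 CPM in male controls and 10.1, 5.85, 5.14, 5.53 and 4.67 CPM in male EAE mice. It had 13.4, 13.004, 11.7 and 10.3 CPM in female controls and 14.1, 10.4, 11.9 and 11.1 CPM in female EAE mice. Male EAE 1 stood apart from the other males, which reached at most 7.40 CPM, and every female library was above every male library. The EAE effect was -0.09 in males (SE 0.180, adjusted p = 0.734) and -0.03 in females (0.187, 0.945), both from edgeR, with 95% intervals from -0.47 to 0.29 and from -0.42 to 0.36. Without male EAE 1 the male value was -0.32 (edgeR adjusted p = 0.0634), a call.

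Cd59a was also compared between the sexes. Female controls averaged 12.1 ± 1.37 CPM and male controls 6.67 ± 0.772 CPM (SD, n = 4 each), with no overlap (1.16% of all genes), a log2 difference of 0.86 (SE 0.189, unadjusted p = 0.000235, edgeR adjusted p = 0.228) that was not a call. Averaged over control and EAE mice, a comparison added after the values were seen, females were 1.85-fold higher (log2 0.89, 95% interval 0.62 to 1.16, edgeR adjusted p = 0.00559). Cd59a was 1 of 13 genes called between the sexes in this comparison, 0.0584% of those tested, of which 7 lie on the X or Y chromosome and 6 on autosomes. The call held in all 29 alternatives run, with log2 values of 0.83 to 1.004. The Y-linked gene Ddx3y had 15.7 to 22.9 CPM in male and 0 counts in all female libraries, and male EAE 1, with 18.4 CPM of Ddx3y and 0.130 CPM of Xist, matched its label. Cd59a shares 3.87% of its 50-base stretches with Cd59b, which had 3 to 24 counts per library.

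Clu, the most abundant of the 8 per kilobase, had 643, 759, 707 and 717 CPM in male controls and 656, 643, 697, 615 and 624 CPM in male EAE mice. Female controls had 553, 720, 809 and 537 CPM and female EAE mice 566, 631, 616 and 505 CPM. The groups overlapped in both sexes, with log2 fold changes of -0.13 in males and -0.18 in females (standard errors 0.109 and 0.115, adjusted p = 0.397 and 0.384 from edgeR) and 95% intervals from -0.35 to 0.10 and from -0.42 to 0.06.

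**Figure D3:**
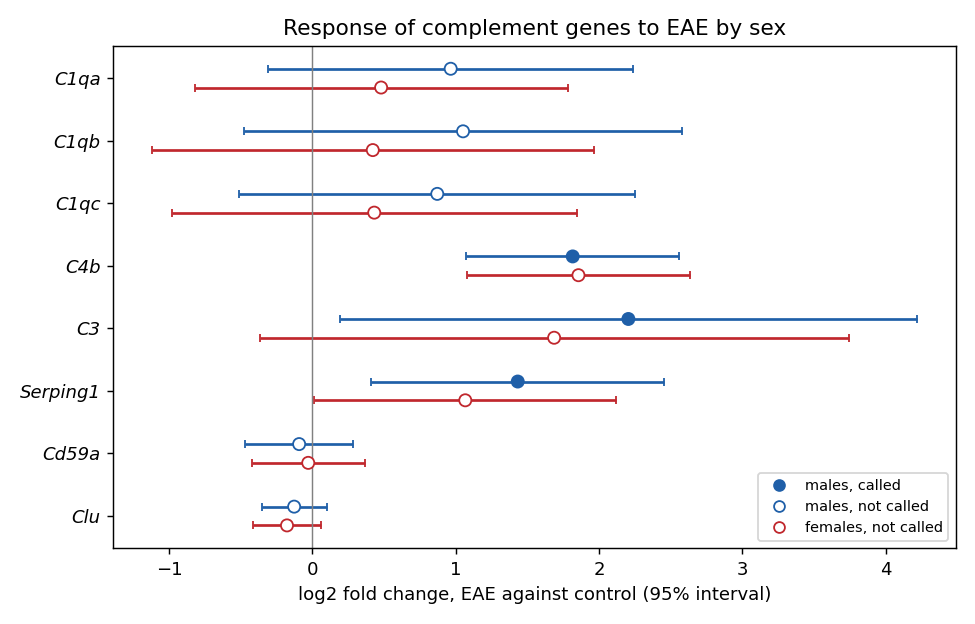
Log2 fold change of EAE against control for the 8 genes, with the 95% interval from edgeR, in males (blue) and females (red), filled where the gene was called. C4b lay at 1.82 in males and 1.86 in females. The intervals of the C1q chains, Cd59a and Clu crossed 0 in both sexes, and that of C3 crossed 0 in females.

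In all, 3 of the 8 genes were called in males, each of them higher (C4b, C3 and Serping1), where 39.6% of all genes tested were called and 19.2% were called higher and 20.4% lower. The median log2 fold change of the 8 was 1.01, against 0.02 over all genes. In females 0 of 8 were called, where 0.0584% of all genes were, and the median was 0.46 against 0.00 over all genes. Before adjustment 9801 genes in males and 4415 in females had p under 0.05. C4b was the only one of the 8 whose groups did not overlap, in each sex, while EAE was higher with no overlap for 10.1% of all genes in males and 3.99% in females. Averaged over the sexes 3 of 8 were called, all higher, with 18.8% of all genes called higher. In healthy mice 0 of 8 differed between the sexes by a call (0.0674% of all genes). The test of the difference between male and female EAE effects called 0 of 8 genes (adjusted p from 0.877 to 0.987), as it called 0 of all 22242 genes, with 933 genes under 0.05 before adjustment. A call in males and none in females therefore does not show that the sexes differed.

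After the group means were removed from log2 CPM, the Pearson correlation over the 17 libraries was 0.97 for C1qa with C1qb, 0.96 for C1qa with C1qc and 0.96 for C1qb with C1qc, and without female control 3 and female EAE 1 these were 0.91, 0.84 and 0.87. C4b correlated with Serping1 at 0.69 and with C3 at 0.66, while C3 correlated with Clu at 0.40 and with Serping1 at 0.35, and without those libraries the values were 0.74 and 0.72 for C4b, 0.33 for C3 with Clu and 0.34 for C3 with Serping1. C4b and the C1q chains correlated at 0.20 to 0.27, and the median of all 28 pairs was 0.22. Libraries share depth and scaling, and C3 counts are few, so these values are descriptive.

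**Figure D4:**
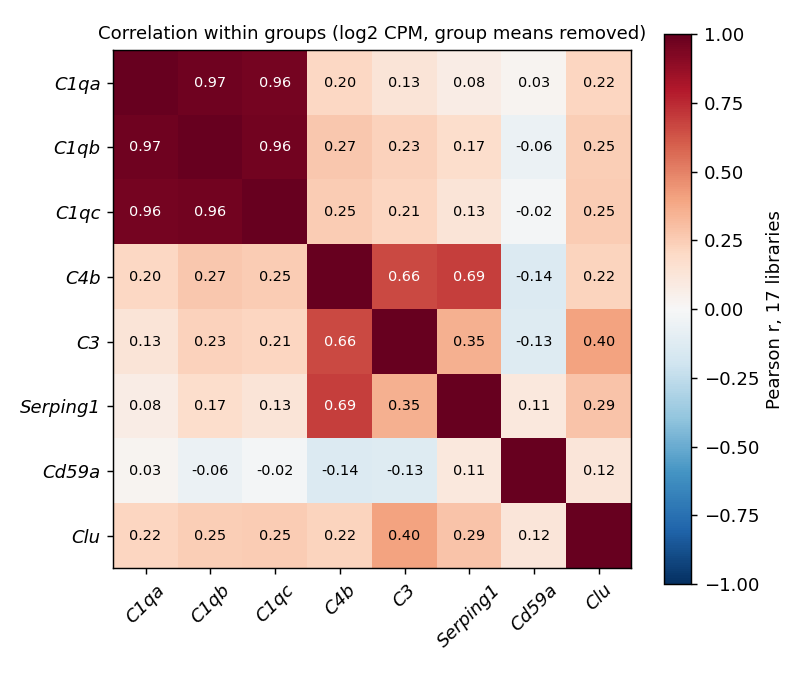
Pearson correlation of log2 CPM between the 8 genes over 17 libraries after group means were removed, with the value in each cell. The C1q chains form a block at 0.96 to 0.97, C4b reaches 0.69 with Serping1 and 0.66 with C3, and C3 reaches 0.40 with Clu.

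The genes most like each member were named by a Pearson correlation that also had group means removed, among 13470 genes with a mean log2 CPM above 1. For C4b they were the MHC class I genes H2-D1 (0.94) and H2-K1 (0.82), Cd274 (0.89), which encodes the checkpoint ligand PD-L1, the MHC class II invariant chain Cd74 (0.81) and the interferon-induced GTPase Irgm1 (0.78). H2-D1 had 70.4 and 98.6 CPM in male EAE 2 and 3 against 34.1 to 45.8 CPM in the other EAE males, and 37.3 CPM in female EAE 5 against 63.5 to 69.1 CPM in the other EAE females, and the same libraries were the highest EAE males and the lowest EAE female for C4b. For Serping1 the list again held Cd274 (0.79), B2m, the light chain of MHC class I (0.76), and H2-D1 (0.75), followed by Xkr8 and Cep57l1. For the summed C1q chains it was Selplg (0.95), Laptm5 (0.93), Cx3cr1 (0.93), Cers2 (0.88) and Vsir (0.87). Clu was most like Kcnj10 (0.93), Slc1a3 (0.93) and Gja1 (0.92), which encode an astrocyte potassium channel, a glutamate transporter and a gap junction protein, and then Ddx21 and Slc6a11. For C3, where few counts limit any such value, F2r led (0.86), before Tmem123, Prox1, Tm7sf3 and Nfatc3, and for Cd59a it was Rxylt1 (0.78), Pmpcb (0.77), Tmem250-ps (0.74), Srprb and Gm5873.

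Cell type markers that moved with EAE are given beside C4b and Serping1. Of 12 astrocyte markers 9 were lower in EAE males, where 20.4% of all genes were, and 0 were called in females (medians -0.50 and -0.43), and their sums were 8312 to 11309 CPM in male controls and 6285 to 7604 CPM in male EAE mice. Female controls were at 5925 to 10319 CPM and female EAE mice at 5873 to 6717 CPM. The log2 ratio of C4b to the summed astrocyte markers was -12.38 ± 0.362 in male controls (SD, n = 4), -10.26 ± 0.763 in male EAE (SD, n = 5), -12.38 ± 0.519 in female controls and -10.35 ± 0.636 in female EAE mice (SD, n = 4 each), with no overlap in either sex. Slc1a2 and Aldoc, at medians of 2775 and 1656 CPM over the 17 libraries, were the largest terms of this sum. Aldoc averaged 2662 CPM in male controls and 1284 CPM in EAE males, so a lower sum also raised the ratio. Gfap averaged 315 CPM in female controls and 410 CPM in EAE females, against the direction of the list. Of 8 measured macrophage and monocyte markers 4 were higher in EAE males (Cd163, Mrc1, Ccr2 and Lyz2), where 19.2% of all genes were, and 0 in females, with sums of 3.29 to 4.39 CPM in male controls against 4.45 to 11.5 CPM in EAE males, and 3.28 to 5.29 CPM in female controls against 6.34 to 9.52 CPM in EAE females. Male EAE 2 and 3, highest for C4b and Serping1, were highest for this sum among EAE males, at 11.5 and 9.82 CPM. Ms4a7 of this list was at 0 in 12 of 17 libraries. Of 10 measured T and B cell markers 5 were higher in EAE males and 1, Igkc, in females. Their sums were 65.3 to 101 CPM in male controls against 91.4 to 207 CPM in EAE males, and 100.3 to 117 CPM in female controls against 101 to 170 CPM in EAE females, with Ms4a1 at 0 in 14 libraries. Ighm and Cd4 had the highest medians of this list over the 17 libraries, at 72.3 and 24.9 CPM, and were present in every control. Igkc averaged 0.0456 CPM in male controls and 26.2 CPM in EAE males, and Cd3e 0.0398 and 0.437 CPM. In females Igkc averaged 0.177 and 18.3 CPM, and Cd3e 0.0478 and 0.408 CPM. Of 10 oligodendrocyte markers 3 were higher in EAE males (Mag, Cldn11 and Mal) and 0 were called in females, with sums of 6588 to 7246 CPM in male controls against 6659 to 8206 CPM in EAE males, and 6092 to 7630 CPM in female controls against 6772 to 9244 CPM in EAE females. Of 10 endothelial and pericyte markers 4 were higher and 2 lower in EAE males, and 0 were called in females. Cldn5, Kcnj8 and Vtn were among those higher, and Slco1c1 and Pdgfrb were the 2 lower. Slco1c1 averaged 9.03 CPM in male controls and 6.41 CPM in EAE males, and Pdgfrb 8.003 and 5.996 CPM. The named higher genes were less abundant, with Cldn5 at 1.25 and 2.21 CPM, Vtn at 0.860 and 1.58 CPM and Kcnj8 at 0.0592 and 0.255 CPM. The sums of this list were 30.2 to 37.1 CPM in male controls against 29.9 to 38.8 CPM in EAE males. In female controls the sums were 34.5 to 61.3 CPM, against 34.3 to 43.1 CPM in EAE females. The part of any of these cells in the C4b, C3 and Serping1 levels was not tested.

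The other genes of the pathway, 53 listed and 42 tested, were examined by role. In EAE males 15 of 42 were higher and 1 was lower, at a median log2 fold change of 0.49, and in females 0 were called, at a median of 0.18. Over all genes 19.2% were called higher and 20.4% lower in males, and 0.0584% were called in females. The counts by role below are to be read beside these shares. Among enzymes and recognition molecules of the classical and lectin pathways 3 of 12 were higher. C1ra, the protease that C1q carries, had 1.26 ± 0.544 CPM in 4 male controls and 2.34 ± 0.266 CPM in 5 male EAE mice (mean ± SD), a log2 fold change of 0.89 (edgeR adjusted p = 0.0128) with no overlap. In females C1ra had 1.13 ± 0.254 and 1.95 ± 0.400 CPM (SD, n = 4 each), also with no overlap. The adjusted p from edgeR was 0.181. Over all genes EAE was higher with no overlap for 10.1% in males and 3.99% in females. Masp2, the lectin pathway protease that cleaves C4, rose by 0.70 and Masp1, which activates Masp2, by 0.64 in males. None of 2 alternative pathway genes and none of 5 terminal pathway genes was called in either sex. Of 8 receptors, 2 were higher in males, Itgb2 (1.55), a chain of the complement receptor integrins, and C3ar1 (1.25), the receptor for the C3a fragment. Both were rare, and their male groups overlapped. Itgb2 had 0.0814 to 0.231 CPM in male controls and 0.104 to 1.01 CPM in EAE males. C3ar1 had 0.0994 to 0.254 CPM in male controls and 0.181 to 0.609 CPM in EAE males.

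Of 8 other regulators 5 were higher and 1 lower in EAE males. Cd46, a cofactor for cleavage of C3b, rose by 1.43, with 0.114 ± 0.0713 CPM in 4 male controls and 0.316 ± 0.226 CPM in 5 male EAE mice (mean ± SD). It was rare, and its male groups overlapped, at 0.0508 to 0.214 CPM in controls and 0.0963 to 0.633 CPM in EAE mice. Vtn, vitronectin, which binds the terminal complex, rose by 0.87. It is also in the list of endothelial and pericyte markers, so it is counted in both lists. The 1 gene that was lower, C1qbp, named after its values were seen, encodes a mitochondrial protein first described as a C1q binding protein and fell by 0.34 (edgeR adjusted p = 0.00857). Of 7 neuronal proteins with CUB or sushi domains, a family that includes inhibitors of complement, 5 were higher in males. Of the 12 neuron markers 6 were also called higher in EAE males and 1 lower (Syt1 at 0.55, Gad2 at 0.74 and Rbfox3 at -0.58), with 0 called in females and sums of 13204 to 16761 CPM in male controls against 15789 to 18286 CPM in EAE males, and the part of neuronal RNA in the levels of this family was not tested. Csmd3 rose by 1.01 and Csmd1 by 0.95, and Sez6l and Sez6l2 by 0.74 and 0.62. For Csmd1 the 4 male controls averaged 9.62 ± 3.09 CPM and the 5 EAE males 18.6 ± 3.78 CPM (± SD). The groups did not overlap, with EAE higher, which held for 10.1% of all genes in males. Adjusted p from edgeR ran from 0.00616 for Sez6l2 to 0.0394 for Cd46 among these genes. Read against the 19.2% of all genes called higher in males, the 15 of 42 describe this list and nothing particular to it was tested.

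**Figure D5:**
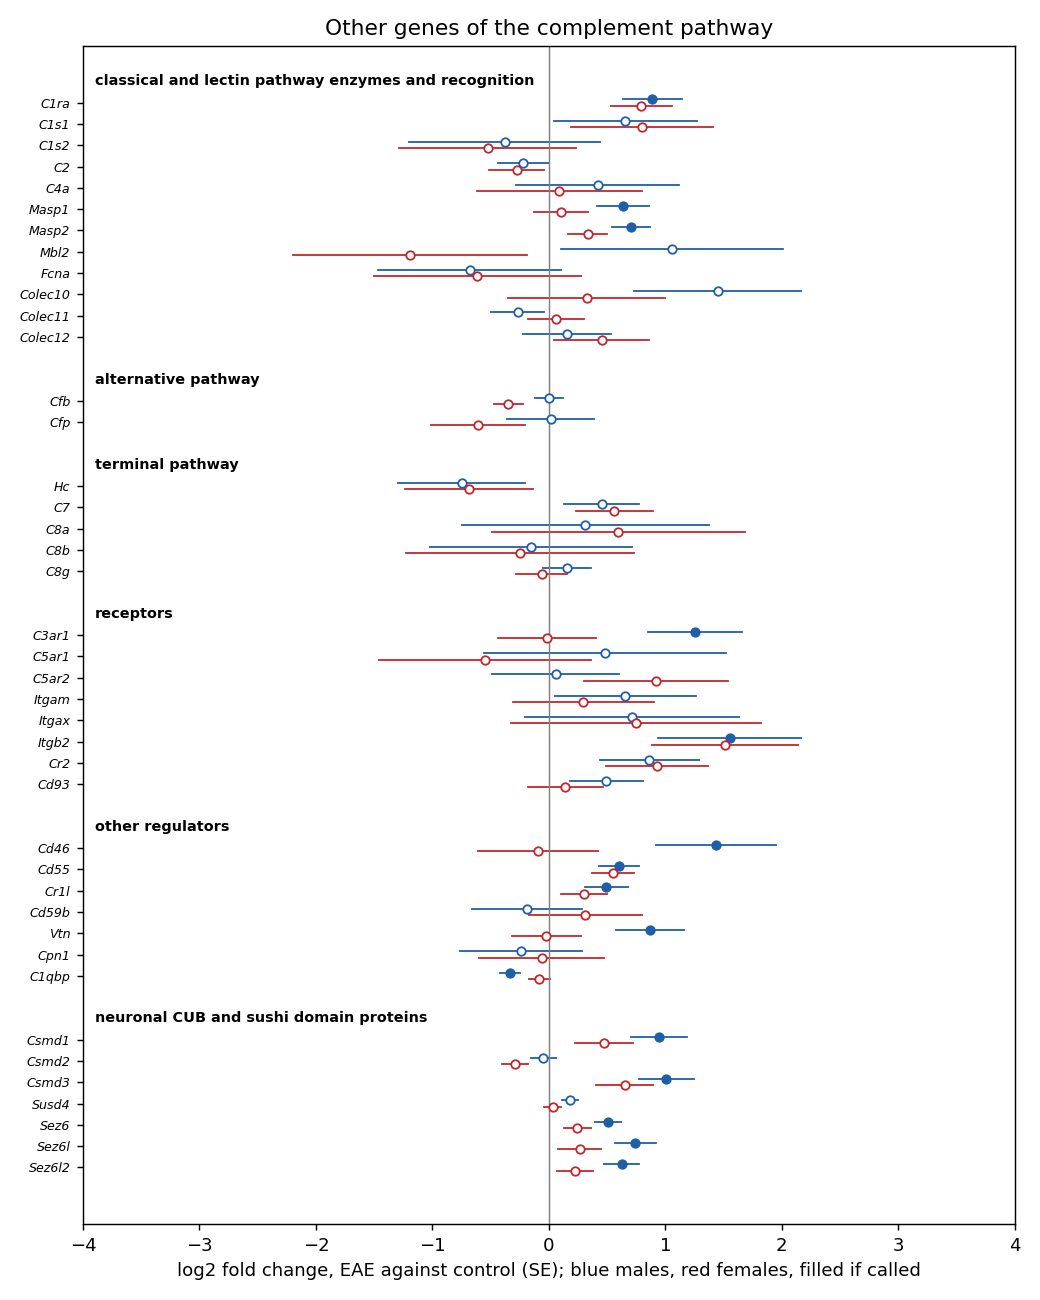
Log2 fold change of EAE against control (points, with the standard error as bars) for 41 of the 42 other complement genes tested, by role, in males (blue) and females (red), filled where called. Filled points are 14 higher and 1 lower, all of them in males.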

How the data were processed

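RNA was immunoprecipitated by the HA tag from cortex of 17 mice and sequenced as stranded polyA libraries. The authors demultiplexed reads with bcl2fastq 2.17, ran FastQC and Trimmomatic, aligned to mm10 and counted reads per Ensembl gene with QuasR, and the deposited values are these raw counts. The annotation release and the handling of reads with several matches are not given in the sources used here. Genes with at least 1 count in at least 9 of 17 libraries were kept. EdgeR 4.0.16 (R 4.3.3) was fitted with TMM scaling and 1 mean per group over all 17 libraries, and p-values were adjusted by Benjamini-Hochberg over all genes tested. Standard errors and 95% intervals came from the quasi-likelihood F statistic. Alternatives used DESeq2 1.42.0, limma 3.58.1, sva 3.50.0, other scalings and filters, and left out each library. The procedure was tested on simulated data. Correlations among the members used log2(CPM + 0.05). For the most correlated genes, single members were on that scale and the summed C1q chains on log2 CPM without an offset. The genes compared with them were on edgeR's log2 CPM with a prior count. Samples were grouped by the labels. The points of the study are individual mice, but the labels do not state separate animals, and p-values measure the spread between these samples. No batch is given in the labels. Floors (3 counts) cover counting error only. The members, gene lists and markers were picked with earlier results of these data known. All 8 members were named, of the other complement genes the called ones with the largest changes (at most 12), and for each member the 5 genes most correlated with it. Coordinates are from GENCODE and promoters from RefSeq. Some genes and motifs of the lists are counted but not reported here by name.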

Additional observations from a re-analysis of the deposited data

Results flagged for a closer look

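In groups of 4 or 5 mice, a library was marked where its gap to the nearest other library was large against the range of the group (Dixon's test at 95%). This marked 7 of 32 combinations of gene and group tested. The nominal rate of 1 in 20 assumes normally spread, independent values, and the C1q chains varied together. The count can therefore not be read as more than chance.

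For C1q, female EAE 1 lay far above the other EAE females, with 23.4 CPM of C1qa, 20.7 CPM of C1qb and 18.3 CPM of C1qc. Female control 3 lay far above the other female controls, with 11.6 CPM of C1qb and 10.2 CPM of C1qc. These 5 values come from 2 libraries, which also had the highest microglia marker sums of their groups (99.5 and 78.0 CPM).

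For C4b, female EAE 5 lay below the other EAE females, at 2.32 CPM. For Cd59a, male EAE 1 lay above the other EAE males, at 10.1 CPM.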

How the results depend on the processing

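Male C4b, C3 and Serping1 (3 calls) kept their direction under all 31 alternatives. The number of the 8 genes called higher in males was 6 in the exact test of edgeR, 6 in fits to a single sex, 6 without female control 3 and female EAE 1, 1 without male EAE 2 and male EAE 3, and 0 with 1 surrogate variable, where 9 genes of all tested were called. The surrogate variable was estimated from these libraries. It was -0.351 to -0.0438 in EAE males and -0.00458 to 0.516 in male controls, without overlap. In males it therefore cannot be told apart from EAE, and the cause of the loss was not tested. Leaving out 1 library gave 2 to 4 higher, and 0 to 1 lower, the 1 being Cd59a without male EAE 1. Among the other complement genes, 15 higher and 1 lower became 0 and 0 with the surrogate variable.

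In females the number called higher went from 0 to 1, C4b, with no filter (adjusted p = 0.0652), DESeq2, the exact test, each sex alone, 1 surrogate variable (0.0945), a gene length offset (0.0975) and without male EAE 2 and male EAE 3 (0.00252), and was 0 to 1 when 1 library was left out. The other complement genes gave 3 higher and 1 lower with DESeq2 and 1 higher with the exact test. Over all 22242 genes these settings called 1354 and 373 in females, against 13 in the main fit. Averaged over the sexes, 1 was called higher with the surrogate variable, and 3 to 6 when 1 library was left out, the highest without female control 3. Cd59a, female against male control, was called (1 of 8) with DESeq2 and with the surrogate variable, and 0 to 1 were called when 1 library was left out.

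Correlations of same-numbered deviations between control and EAE mice ran from -0.57 to 0.53, and mismatched numbers were not set beside them. Whether the shared replicate numbers pair the mice can therefore not be told. With the replicate block, C4b in females was called (2.08, adjusted p = 0.033 from edgeR; 1 of 8 higher), C3 in males was not (0.123), and over all genes it called 7871 in males against 18 in females. C3 is limited by depth, at no more than 22 counts. Intervals of the C1q chains are limited by the spread between mice.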
